A study of Mus musculus with 6 samples.

Results

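The 60 genes described here encode enzymes that write or remove histone marks, ATP-driven chromatin remodellers and close partners of both, chosen by name and measured in retina RNA from Emcn-/- and Emcn+/+ mouse pups. All 60 were present among the 28627 genes of the table, and all 60 passed the filter on low values, which left 16681 genes. Whole retinas gave 6 libraries, 3 labelled Emcn+/+ and 3 labelled Emcn-/-, from littermates aged 15 days after birth that had been through oxygen-induced retinopathy. Here a spell in high oxygen prunes the growing retinal capillaries, and the tissue turns hypoxic once the pups are back in room air. Every library came from a retina that went through the model, so there is no untreated group. The gene removed, Emcn, makes endomucin, a glycoprotein on the surface of endothelial cells. The labels name neither the strain nor the way the Emcn allele was made, and they do not say whether each library came from a separate animal, so any p-value measures only the spread between these samples.

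The libraries held 14865868 to 17087621 reads assigned to genes. Values are normalised reads: read counts divided by 1 factor per library, not adjusted for gene length. Emcn was measured at 91.5 ± 10.05 normalised reads with the Emcn+/+ label and at 2.54 ± 1.86 with the Emcn-/- label (SD, n = 3 each), and none of the 6 libraries went against its label. Emcn+/+ replicate 3 was the 1 library with reads of a female (17641 Xist reads and 0 Ddx3y reads), and Emcn+/+ replicate 1 held 35577 normalised reads of lens genes against 23.2 to 144 elsewhere. Rod genes took the most reads of the 16 cell type lists. In whole retina, fewer cells of a type and less RNA per cell cannot be told apart.

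Histones carry small chemical marks that help set whether a gene is open to transcription. Methyltransferases of the KMT2 and SETD1 families place methyl groups on histone H3 at promoters and enhancers, acetyltransferases such as CREBBP and EP300 mark active regulatory regions, Polycomb repressive complex 2 marks silenced genes, and demethylases and deacetylases take marks off. Remodellers of the CHD, SWI/SNF, INO80 and SRCAP types use ATP to slide, evict or exchange nucleosomes. In the mouse retina, Polycomb enzymes are best known from dividing progenitors, and the rods, which make up most cells, have an unusually compact nucleus with heterochromatin at its centre.

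Most of the 60 genes had lower values in Emcn-/- than in Emcn+/+ retinas, by a small amount. Of the 60, 50 had a lower and 10 a higher estimate, where the shares over all tested genes were 48.0% and 52.0%. The median log2 fold change was -0.15, against 0.0075 over all tested genes, and it ranged from -0.51 for Kmt2d to 0.15 for Kat8. For 37 genes every Emcn-/- value lay below every Emcn+/+ value, and for 3 every one lay above; over all tested genes these shares were 6.94% and 7.48%. None of the 60 passed an adjusted p of 0.05 with limma, a linear model on log2(value + 1) fitted over all tested genes, where 0.00599% of genes passed and the lowest adjusted p among the 60 was 0.305. At an unadjusted p under 0.05 limma counted 32 of them lower and 0 higher, against 4.47% and 3.67% of all tested genes. edgeR on the recovered reads called 0 of the 60 (0.00599% of genes, lower), and DESeq2 called 9 of the 54 it adjusted, all lower, against 0.919% of genes called lower and 0.203% called higher. Without its filter on the mean DESeq2 called 5 (0.122% of genes lower and 0.049% higher). The 9 were Kmt2a, Kmt2c, Kmt2d, Nsd1, Ash1l, Crebbp, Trrap, Ubn2 and Ino80d.

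The genes were brought together with these results known: several had been seen among the smallest p-values of the same comparison. The counts and fold changes are therefore a description of how the genes behaved in these 6 libraries and support nothing beyond them. Single libraries moved the calls. Without Emcn+/+ replicate 3, limma called 9 of the 60 lower and 0 higher (0.677% of all tested genes were called lower and 0.228% higher), and 8 of these 9 were also among the DESeq2 calls.

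**Figure D1:**
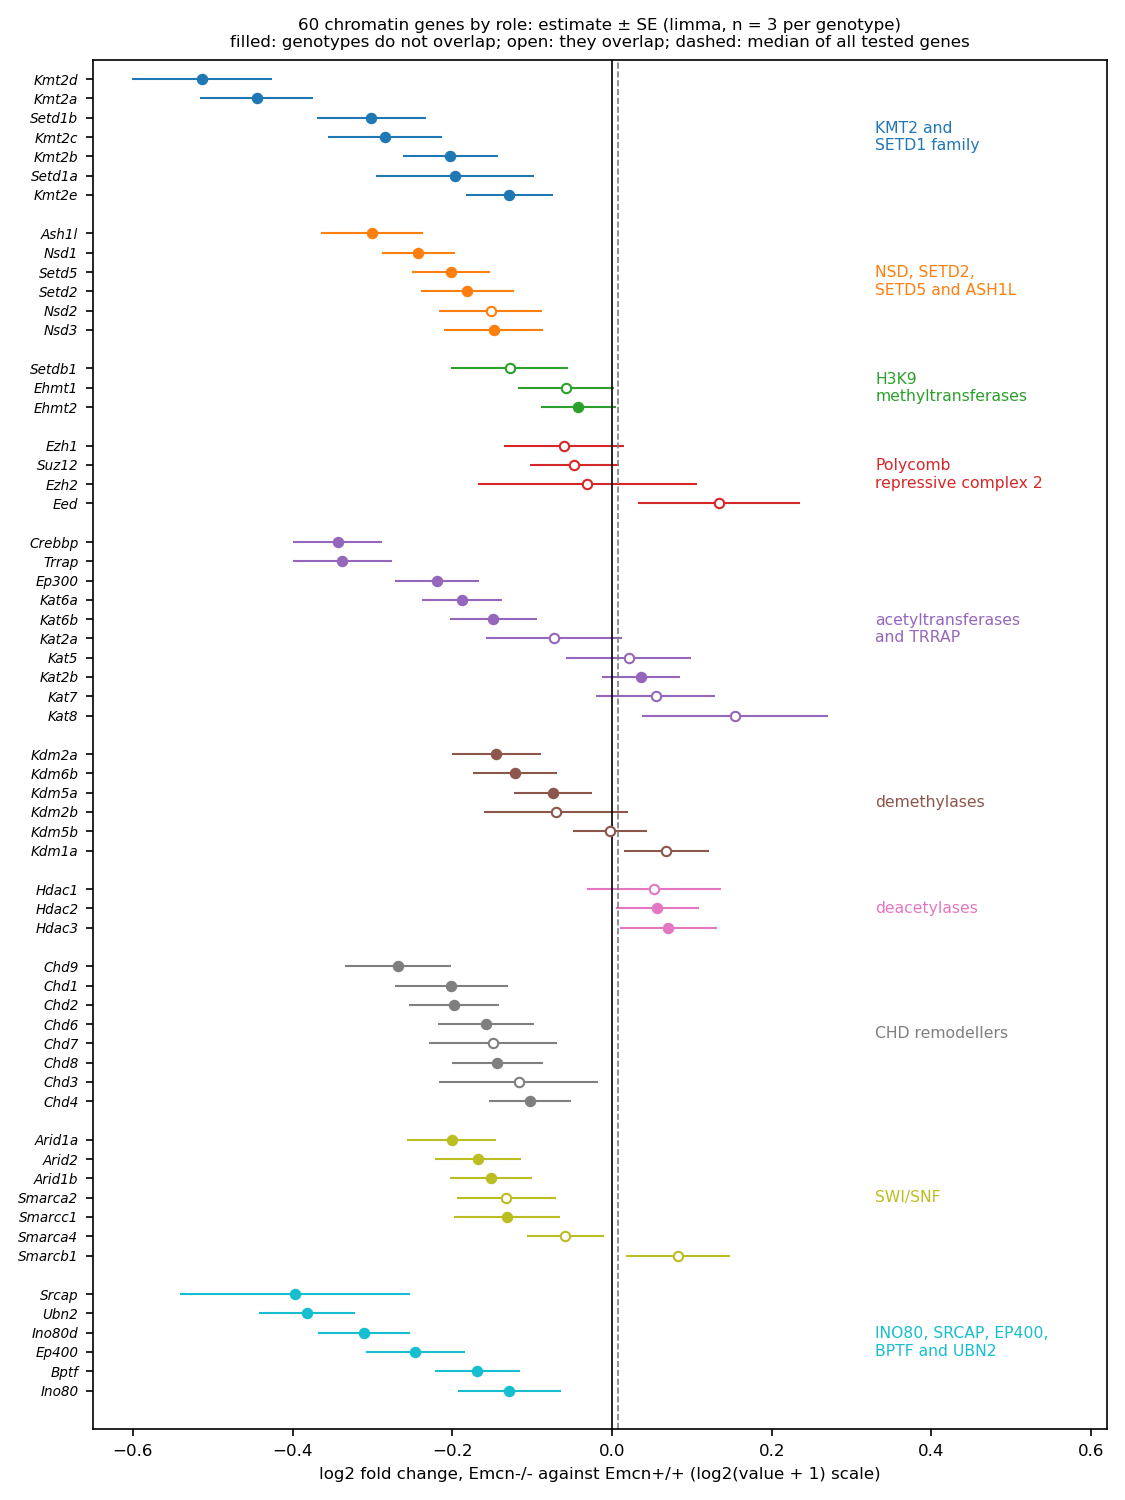
Log2 fold change (Emcn-/- against Emcn+/+, log2(value + 1) scale) of the 60 chromatin genes, grouped by role, with the SE of the limma fit (n = 3 per genotype). Filled points mark genes whose genotypes do not overlap; the KMT2 and SETD1, NSD, lysine 9, CHD and INO80 groups lie wholly left of 0, and the 3 deacetylases lie right of it.

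Upstream sequences are shown for 3 genes with lower values (Kmt2d, Kmt2a, Crebbp) and 2 without (Hdac2, Eed), so that both kinds of promoter can be read side by side. Each is the 250 bases before the transcription start from RefSeq (build GRCm38.p6), written 5′ to 3′ on the gene's strand, with GC boxes in capitals (GGGCGG, or CCGCCC on the other strand).
Kmt2d (chr15:98871206-98871455, minus strand): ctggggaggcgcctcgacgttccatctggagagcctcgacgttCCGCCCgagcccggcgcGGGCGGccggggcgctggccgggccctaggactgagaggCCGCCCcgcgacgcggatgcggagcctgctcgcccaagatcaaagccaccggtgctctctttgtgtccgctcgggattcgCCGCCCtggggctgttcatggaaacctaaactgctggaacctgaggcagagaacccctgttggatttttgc
Kmt2a (chr9:44881290-44881539, minus strand): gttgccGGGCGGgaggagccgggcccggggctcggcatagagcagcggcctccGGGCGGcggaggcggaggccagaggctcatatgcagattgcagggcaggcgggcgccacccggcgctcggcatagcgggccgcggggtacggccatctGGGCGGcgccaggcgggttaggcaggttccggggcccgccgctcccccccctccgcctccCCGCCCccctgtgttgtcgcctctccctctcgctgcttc
Crebbp (chr16:4213405-4213654, minus strand): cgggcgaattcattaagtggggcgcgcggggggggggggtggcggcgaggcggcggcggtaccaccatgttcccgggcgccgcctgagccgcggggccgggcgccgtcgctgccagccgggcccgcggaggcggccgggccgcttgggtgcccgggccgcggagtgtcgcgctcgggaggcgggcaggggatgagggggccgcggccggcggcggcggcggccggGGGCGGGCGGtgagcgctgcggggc
Hdac2 (chr10:36974294-36974543, plus strand): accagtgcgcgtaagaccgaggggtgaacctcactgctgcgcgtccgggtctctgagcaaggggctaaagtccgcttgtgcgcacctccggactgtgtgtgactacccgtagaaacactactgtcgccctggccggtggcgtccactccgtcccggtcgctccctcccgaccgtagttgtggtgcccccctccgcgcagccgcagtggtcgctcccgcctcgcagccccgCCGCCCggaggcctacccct
Eed (chr7:89980977-89981226, minus strand): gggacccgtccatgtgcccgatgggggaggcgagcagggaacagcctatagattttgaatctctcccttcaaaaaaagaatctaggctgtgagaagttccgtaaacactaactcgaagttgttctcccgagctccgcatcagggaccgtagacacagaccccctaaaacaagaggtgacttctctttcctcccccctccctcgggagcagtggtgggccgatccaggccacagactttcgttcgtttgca
The GC box, a site for SP-family factors, occurred 4 times before Kmt2d, 4 times before Kmt2a, 2 times before Crebbp and 1 time before Hdac2, with no match before Eed. RefSeq windows were found for 41 of the 60 genes. A window before a RefSeq start can lie inside the gene as GENCODE draws it, as those of Crebbp, Setd5, Kat6b and Smarcc1 do. For 39 of the 41, the bases after the start matched the opening part of a GENCODE transcript. At least 1 GC box stood in 30 of the 41 windows (73.2%), against 32.7% of 32851 mouse promoter windows of the same length. Split by the readout, it stood in 20 of 23 windows of genes whose Emcn-/- values were all lower and in 10 of the other 18. The TATA box (TATAAA, either strand) was found in 0 of 41 windows, against 12.4% of all. The core of the hypoxia response element (ACGTG, either strand) was found in 7 of 41 (17.1%), against 16.6% of all. The windows held a median of 21 CpG dinucleotides, against 6 over all windows. A match of letters is a description and not evidence of binding.

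The KMT2 and SETD1 family, whose members place methyl groups on lysine 4 of histone H3, held the genes with the largest differences, Kmt2d and Kmt2a. All 7 genes had lower values in Emcn-/-, with a median log2 fold change of -0.28, and the genotypes did not overlap for any of the 7. The median of the INO80, SRCAP, EP400, BPTF and UBN2 group was nearly the same (-0.28). That group had the lower median without Emcn+/+ replicate 3 (-0.31 against -0.30) and with the coding length trend described below removed (-0.12 against -0.084). With the exonic trend removed it did not (-0.15 against -0.17). Kmt2d, an enhancer methyltransferase and the gene mutated in most Kabuki syndrome, had 4599.6, 5005 and 3950.0 normalised reads in Emcn+/+ and 3319, 2944 and 3201 in Emcn-/-. The means were 4518 ± 532 and 3155 ± 192 (SD, n = 3 each), 30.2% lower in Emcn-/-, with a log2 fold change of -0.51 ± 0.088 (SE). Emcn+/+ replicate 3 was the lowest of its genotype for this gene and still lay above each Emcn-/- library. Kmt2a, the founding MLL protein, which keeps developmental genes such as the Hox clusters active, had 5086, 5614 and 4781 in Emcn+/+ and 3731, 3605 and 4023 in Emcn-/- (-0.44 ± 0.071, 26.6% lower). The gap between the genotypes for Kmt2a, from 4023 to 4781, was wider than the spread within Emcn-/- but narrower than that within Emcn+/+ (4781 to 5614). Their paralogs differed less. Kmt2c, the partner of Kmt2d at enhancers, stood at -0.28 ± 0.072 and Kmt2b, the closest relative of Kmt2a, at -0.20 ± 0.059. Setd1b and Setd1a, catalytic subunits of the complexes that place most promoter methylation, stood at -0.30 ± 0.069 and -0.20 ± 0.099. Kmt2e, whose SET domain has little or no known enzymatic activity, had the smallest difference of the family: 3442, 3505 and 3169 against 3077, 3033 and 3137 (-0.13 ± 0.055).

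Enzymes of histone H3 lysine 36 methylation and their relatives were lower as a group, with all 6 estimates below 0, a median of -0.19 and no overlap of the genotypes for 5 of 6. Nsd1, which places the dimethyl mark, was tight within each genotype: 4081, 3995 and 3986 in Emcn+/+ against 3418, 3339 and 3439 in Emcn-/-. Its means were 4021 ± 52.5 and 3399 ± 52.5 (SD, n = 3 each), with a log2 fold change of -0.24 ± 0.046 (SE). An SD from 3 libraries is uncertain, and the limma adjusted p was 0.374. Ash1l, a trithorax-group methyltransferase, had 3442, 3344 and 3139.7 against 2889, 2549.7 and 2626 (-0.30 ± 0.064). Setd5 (-0.20 ± 0.049) and Setd2 (-0.18 ± 0.058), the latter being the trimethylating enzyme that travels with RNA polymerase II, were lower by less. The smallest difference was in Nsd3, 1834, 1900.0 and 1836 against 1733, 1549 and 1750.4 (-0.15 ± 0.062). Nsd2 (-0.15 ± 0.064) was the 1 gene of the group whose genotypes overlapped.

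Enzymes of the repressive marks lay closer to 0, and their genes were shorter. The median exonic length was 6853 bp for lysine 9 and 5811.5 bp for Polycomb, against 12068 bp for the KMT2 and SETD1 family. Other tested genes of 5 to 7.5 kb had a median log2 fold change of -0.015. The 3 methyltransferases of histone H3 lysine 9 had a median of -0.058, which was 0.020 with the coding length trend described below removed. Setdb1, the trimethylating enzyme that silences retroviral elements, had 688, 689.6 and 748 against 694, 637 and 615 (-0.13 ± 0.073), and its genotypes overlapped. The partners Ehmt1 and Ehmt2 work as a dimer. Ehmt1 was 1099, 1158 and 1186 against 1051, 1125 and 1132 (-0.058 ± 0.060), with overlap. Ehmt2 was 2096, 2148 and 2100.0 against 2071, 2047 and 2044, which separated the genotypes by a mean difference of 2.88% (-0.042 ± 0.047). The 4 core genes of Polycomb repressive complex 2 had a median of -0.039 (0.011 without Emcn+/+ replicate 3), and all 4 overlapped between genotypes. Ezh2, the catalytic subunit of dividing cells, had 207, 231 and 254 against 194, 223 and 264 (-0.031 ± 0.14). Ezh1, the catalytic subunit more common in cells that have stopped dividing, stood at -0.060 ± 0.075. The scaffold Suz12 had 2883, 2961 and 3095 against 2988, 2927 and 2738 (-0.047 ± 0.055). The subunit that reads the mark, Eed, was the 1 with a higher estimate, 376, 413 and 462 against 429, 439.8 and 504 (0.13 ± 0.10).

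Among the acetyltransferases, 6 estimates were below 0 and 4 above, with a median of -0.11. The paralogous co-activators Crebbp and Ep300, which acetylate histones at enhancers and promoters, both had lower values in Emcn-/-. Crebbp had 1550.5, 1633 and 1489.6 normalised reads in Emcn+/+ and 1221, 1229 and 1229 in Emcn-/-, that is 1558 ± 72.04 and 1226 ± 4.71 (SD, n = 3 each; -0.34 ± 0.055, 21.3% lower). Its Emcn-/- values lay close together and below the lowest Emcn+/+ library. An SD from 3 libraries is too uncertain to measure that gap against, and the limma adjusted p was 0.305. Ep300 had 3092, 3374 and 3112 against 2760.4, 2712 and 2748 (-0.22 ± 0.053). Trrap, the very large scaffold shared by the SAGA and TIP60 acetyltransferase complexes, had 3292, 3262 and 2988 against 2581, 2364 and 2604 (-0.34 ± 0.062, 20.9% lower). Kat6a (-0.19 ± 0.051) and Kat6b (-0.15 ± 0.054), the catalytic subunits of the MOZ and MORF complexes, were also lower without overlap. The remaining 5 enzymes were level or had higher estimates. Kat2a, the acetyltransferase of SAGA, stood at -0.073 ± 0.085 with overlap. Its paralog Kat2b had 2096, 2082 and 2095 against 2115, 2213 and 2108 (0.037 ± 0.049), every Emcn-/- library a little higher. Kat5, the TIP60 enzyme that works with Trrap, stood at 0.021 ± 0.078, and Kat7, of the HBO1 complexes, at 0.055 ± 0.074. Kat8, the enzyme for lysine 16 of histone H4, had the highest estimate of all 60: 254, 289 and 292 against 295, 280.1 and 358 (0.15 ± 0.12), with overlapping genotypes.

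Demethylases and deacetylases, which take marks off, lay close to 0. Of the 6 demethylases, 5 had lower and 1 a higher estimate, with a median of -0.072. This direction turned with the length trends described below: 2 of 6 were below 0 with the exonic trend removed (median 0.027) and 2 with the coding trend removed (median 0.023), with Kdm5a, Kdm2b and Kdm5b turning above 0. Kdm2a, a demethylase of lysine 36 that binds CpG islands, had 2618, 2756 and 2573 against 2519, 2309 and 2360.3 (-0.15 ± 0.056), and Kdm6b, which removes the Polycomb mark, had 2004, 1922 and 2029 against 1772, 1806 and 1896 (-0.12 ± 0.053). Neither pair of genotypes overlapped. Kdm5b, which removes the methyl mark that the KMT2 enzymes place, was level at 4725, 4896 and 4739.5 against 4778, 4717 and 4842 (-0.0023 ± 0.046), and its relative Kdm5a stood at -0.074 ± 0.049. Kdm2b stood at -0.070 ± 0.091. Kdm1a (LSD1), a demethylase of the CoREST complex, had a higher estimate, 1369, 1461 and 1386 against 1485, 1449 and 1484 (0.068 ± 0.053), with overlap by 1 Emcn+/+ library. All 3 deacetylases had higher estimates, with that of Hdac1 turning below 0 without Emcn+/+ replicate 1 or Emcn-/- replicate 3: Hdac1 0.053 ± 0.084, Hdac2 0.057 ± 0.052 and Hdac3 0.071 ± 0.061. Hdac1 and Hdac2 are the paired enzymes of the SIN3, NuRD and CoREST complexes, and Hdac3 works in separate complexes. Hdac2 had 1339, 1395 and 1423 against 1439, 1442 and 1441, Hdac1 749.8, 814 and 887 against 842, 785 and 914, and Hdac3 792, 799 and 785 against 802, 875 and 819.7. The genotypes of Hdac2 and Hdac3 did not overlap, by a narrow gap, and those of Hdac1 did.

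All 8 CHD remodellers, ATPases with paired chromodomains, had lower estimates, with a median of -0.15 and no overlap for 6 of 8. With the coding length trend described below removed, 3 of the 8 were below 0 and the median was 0.019; Chd3, Chd4, Chd6, Chd7 and Chd8 turned above 0. Chd9 had the largest difference, 3705, 3592 and 3275 against 3124, 2784 and 2872 (-0.27 ± 0.066), followed by Chd1 (-0.20 ± 0.071) and Chd2 (2358, 2529 and 2345 against 2149.9, 2008 and 2148; -0.20 ± 0.056). Chd8, a gene often mutated in autism, stood at -0.14 ± 0.057, Chd6 at -0.16 ± 0.060 and Chd7, the gene of CHARGE syndrome, at -0.15 ± 0.080 with overlap. Chd4 and Chd3 are the ATPases of the NuRD complex. Chd4 had 5734, 5674 and 5504 against 5497, 5109.8 and 5145 (-0.10 ± 0.051), and Chd3 stood at -0.12 ± 0.10, but at -0.24 without Emcn+/+ replicate 3; it had 1 Emcn+/+ library, replicate 3, below all 3 Emcn-/- libraries (3578 against 3688 to 4130.4).

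In the SWI/SNF remodellers 6 of 7 estimates were below 0 (median -0.13), with the 3 DNA-binding ARID subunits furthest from 0. Arid1b differed little from Smarca2 and Smarcc1. With the coding length trend described below removed, 4 of the 7 were below 0. Arid1b was then at 0.00060 and Smarca2 at -0.029, so the order of these 2 turned. Arid1a had 3151, 3205 and 3077 against 2879, 2583 and 2752 (-0.20 ± 0.056), Arid2, which defines the PBAF form, had 2193, 2182 and 2188 against 2024, 1984 and 1840.0 (-0.17 ± 0.054), and Arid1b stood at -0.15 ± 0.052. None of these 3 overlapped between genotypes. The ATPase Smarca4 (BRG1) had 4242, 4136 and 4309 against 4158, 3946 and 4081 (-0.058 ± 0.048) and the alternative ATPase Smarca2 (BRM) stood at -0.13 ± 0.062; both overlapped. Of the core subunits, Smarcc1 stood at -0.13 ± 0.066 without overlap. Smarcb1 had the 1 higher estimate of the group, 1153, 1128 and 1253 against 1218, 1202 and 1322 (0.083 ± 0.066), with overlap.

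The last group joins subunits of other remodelling and histone exchange machines, and all 6 were lower without overlap (median -0.28). Ubn2, a subunit of the HIRA chaperone that deposits a variant of histone H3, had 2409, 2580.3 and 2253 in Emcn+/+ and 1844, 1857 and 1848 in Emcn-/-, or 2414 ± 164 and 1849.8 ± 6.42 (SD, n = 3 each; -0.38 ± 0.060, 23.4% lower). The Emcn-/- values spanned a far narrower range than those of Emcn+/+, but a range over 3 libraries is uncertain. Ino80d, an accessory subunit of the INO80 complex, had 1381, 1405 and 1317 against 1137, 1113 and 1058 (-0.31 ± 0.057), while the ATPase Ino80 had 743, 792 and 822 against 724, 726 and 704 (-0.13 ± 0.064). Srcap, the ATPase that inserts the variant histone H2A.Z, had the fewest reads of the 60, with 200.2, 203 and 152 against 132, 148 and 137 (-0.40 ± 0.14), and its SE was the largest of the 60. Ep400, the ATPase of the TIP60 complex, stood at -0.25 ± 0.062, and Bptf, the histone-reading subunit of NURF, at -0.17 ± 0.054.

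**Figure D2:**
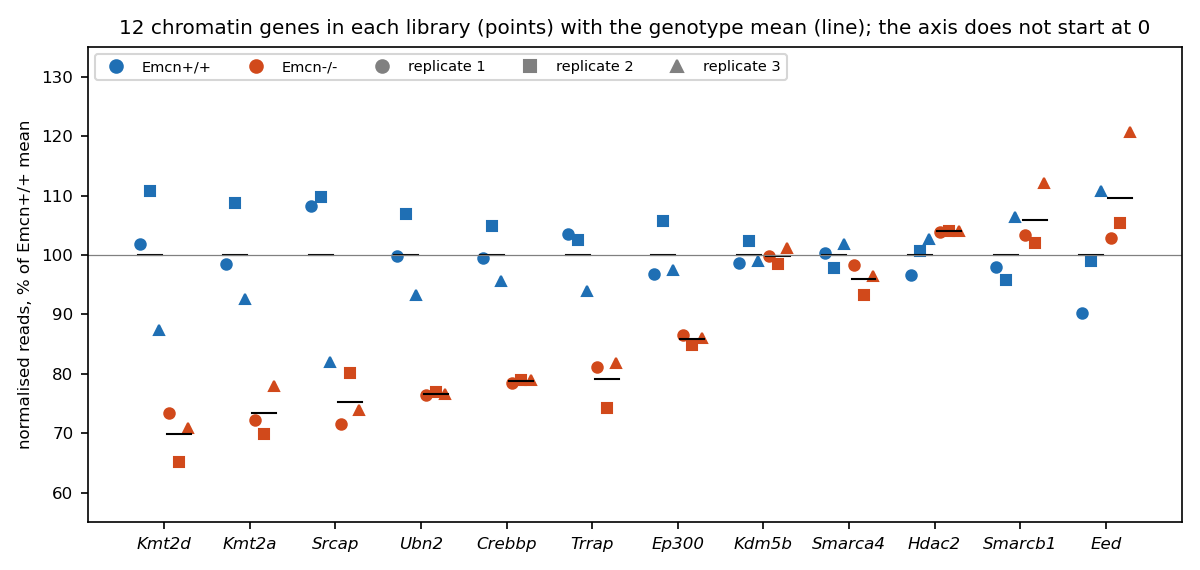
Normalised reads of 12 of the genes in each library, as a percentage of the gene's Emcn+/+ mean; blue points are Emcn+/+, orange points Emcn-/-, shapes are replicates and black lines genotype means. The Emcn-/- points of Kmt2d, Kmt2a, Srcap, Ubn2, Crebbp, Trrap and Ep300 lie below all Emcn+/+ points, those of Kdm5b, Smarca4, Smarcb1 and Eed overlap, and those of Hdac2 lie above.

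Long genes had the larger differences. The exons of the 60 genes summed to a median of 10812 bp, where the median tested gene had 4151 bp, and their longest coding parts to 4997 bp, where it had 1431 bp. In the 30 longest (exonic length 10869 bp and over) the median log2 fold change was -0.20, with 30 of 30 estimates below 0 and 25 without overlap. In the 30 shortest (up to 10754 bp) the median was -0.059, with 20 of 30 below 0 and 12 lower without overlap. Of the other tested genes, 19.1% were lower without overlap at 10 to 15 kb and 40.1% at 15 kb and over. In the ranges from 2.5 to 10 kb these shares were 3.52% to 11.0%. All 9 genes that DESeq2 called were among the 30 longest, but values are not adjusted for length, so length and read depth are not separated there. Other genes showed the same order: the 1066 other tested genes in the length range of the longer set had a median of -0.12, and the 9983 in that of the shorter set had -0.00040.

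Within narrower ranges of length the chromatin genes and the other genes can be set side by side. At 2.5 to 5 kb, 9 chromatin genes had a median of 0.053 and 5742 other genes 0.032. At 5 to 7.5 kb the medians were -0.059 (10 genes) and -0.015, and at 7.5 to 10 kb -0.12 (8 genes) and -0.044. At 10 to 15 kb they were -0.17 (17 genes) and -0.084, and at 15 kb and over -0.25 (16 genes) and -0.17. In the longest range 90.6% of the 394 other genes had a lower estimate and 40.1% were lower without overlap, so most other long genes also had lower estimates. The medians of the chromatin genes lay below those of other genes from 5 kb up, and no test was made of that difference because the genes were chosen with the results known.

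Across the 60 genes the log2 fold change followed coding length (Spearman's rank correlation -0.80) about as closely as exonic length (-0.77), and followed the span of the gene in the genome less (-0.44). With the mean normalised reads of the gene, which are not adjusted for length, the correlation was -0.37. The log2 fold change did not follow the GC content of the transcript (-0.0022). These are descriptions over 60 genes that share the same 6 libraries. Genes of nearly equal exonic length could differ widely. Kmt2a (16.7 kb exonic, 11.9 kb coding) stood at -0.44, while Kdm5b (16.6 kb, 4.63 kb coding) stood at -0.0023 and Nsd2 (16.8 kb, 4.10 kb coding) and Kat6b (16.8 kb, 5.62 kb coding) at -0.15 and -0.15. Ubn2 (21.4 kb, 3.95 kb coding) and Ino80d (17.7 kb, 3.06 kb coding), with short coding parts inside long transcripts, were among the exceptions to the order by coding length, at -0.38 and -0.31. On the other side, Chd7 (8.96 kb coding) stood at -0.15, against -0.34 for Crebbp (7.32 kb coding). The longest coding part belonged to Kmt2d (16.8 kb) and the next to Kmt2c (14.7 kb), which differed less (-0.28).

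When the trend of all genes with exonic length was removed from each library, the median of the 60 went from -0.15 to -0.053. Of the 60, 46 were still below 0, and the genes without overlap went from 37 to 18. The share of all tested genes without overlap after this removal is not given here, so the 18 has no background beside it. Kmt2d kept -0.34, Kmt2a -0.30, Srcap -0.26, Crebbp -0.23 and Ubn2 -0.20, whereas Nsd3 (-0.0085), Kat6b (-0.0059) and Chd6 (0.0055) came to about 0. With the trend on coding length removed in its place, the median was -0.027, with 37 below 0. Ubn2 (-0.30), Ino80d (-0.26), Kmt2d (-0.21), Kmt2a (-0.21) and Crebbp (-0.18) stayed among the furthest from 0, and Kmt2c came to -0.0082.

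**Figure D3:**
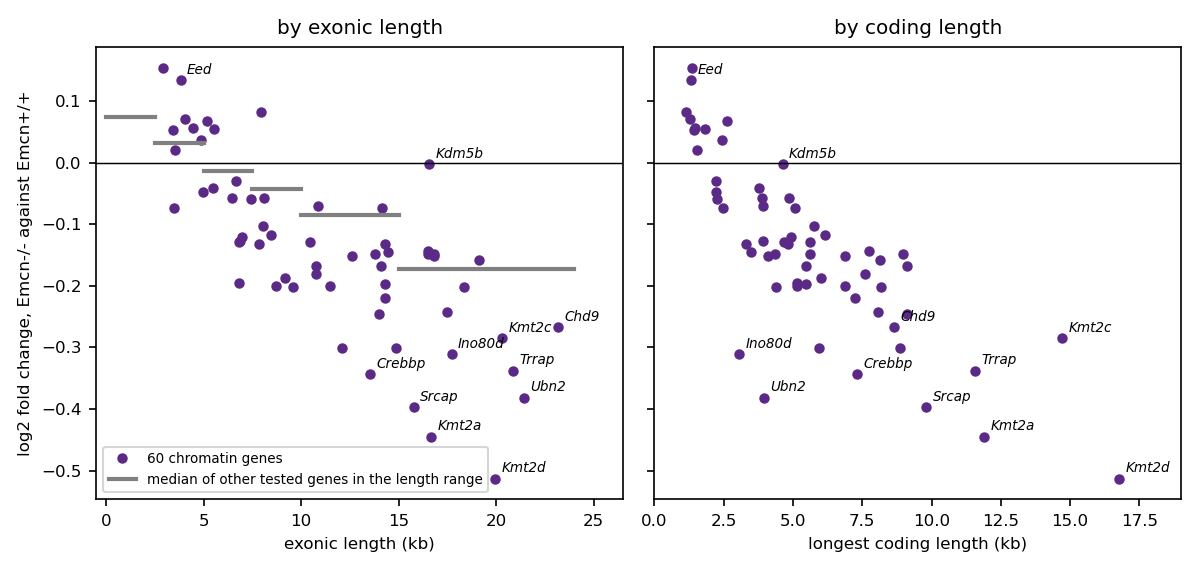
Log2 fold change (Emcn-/- against Emcn+/+) of the 60 genes against exonic length (left) and the longest coding length (right), both in kb, with grey bars (left) at the median of the other tested genes in 6 ranges of exonic length. The points and the grey bars both go down with length, and Kmt2a and Kdm5b differ at nearly the same exonic length.

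Library by library, the longer of the 60 genes set Emcn+/+ apart from Emcn-/- more widely than the shorter ones. Over all tested genes the trend with length overlapped between the genotypes. Its slope (log2 deviation from the gene's mean per 10-fold exonic length) was 0.11, 0.091 and -0.040 in Emcn+/+ replicates 1 to 3. In Emcn-/- replicates 1 to 3 it was 0.010, -0.091 and -0.078. The mean deviation of the 30 longer genes from their own means (log2) was 0.12, 0.17 and 0.056 in Emcn+/+ replicates 1 to 3 and -0.081, -0.16 and -0.10 in Emcn-/-. That of the 30 shorter genes was -0.0019, 0.051 and 0.032 and then -0.027, -0.034 and -0.020. Of the Emcn+/+ libraries, replicate 3 thus lay nearest to Emcn-/- for the longer genes, though still closer to its own genotype. It was the lowest Emcn+/+ library for 21 of the 30 longer genes and 9 of the 30 shorter ones. Malat1, an RNA retained in the nucleus, had the same order of groups. It had 37460, 46430 and 24036 normalised reads in Emcn+/+ and 22332, 20408 and 18671 in Emcn-/-. For Malat1, unlike the longer genes, Emcn+/+ replicate 3 lay close to Emcn-/-. The summed reads of 12 rod markers were 875301 to 938570.4 in Emcn+/+ and 967083 to 1027136 in Emcn-/-, all 12 with a higher estimate. The 10 markers of pigment epithelium, which lies against the photoreceptors, summed to 3598 to 7432 and 8495 to 11873, with all 9 that were tested having a higher estimate. The 6 markers of ciliary body and iris summed to 649.7 to 1007 and 1153 to 1538, all 6 with a higher estimate. The 8 endothelial markers summed to 5724 to 6162 and 3864 to 5916, with 1 of 8 higher, and Emcn-/- replicate 2 was the low library. The part of nuclear RNA and of these cell types in the lower values was not tested. Without Emcn+/+ replicate 1, which held the lens reads, 52 of the 60 estimates were below 0, with a median of -0.15. Mitochondrial transcripts took 1.53% to 1.63% of reads with the genotypes overlapping, and ribosomal protein genes 1.10%, 1.16% and 1.37% in Emcn+/+ and 1.22%, 1.31% and 1.41% in Emcn-/-. Between the 4 libraries with title numbers in the 140s alone, 2 of each genotype, the median of the 60 was -0.17; the 180s series holds 1 library per genotype, so it gives no spread of its own.

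**Figure D4:**
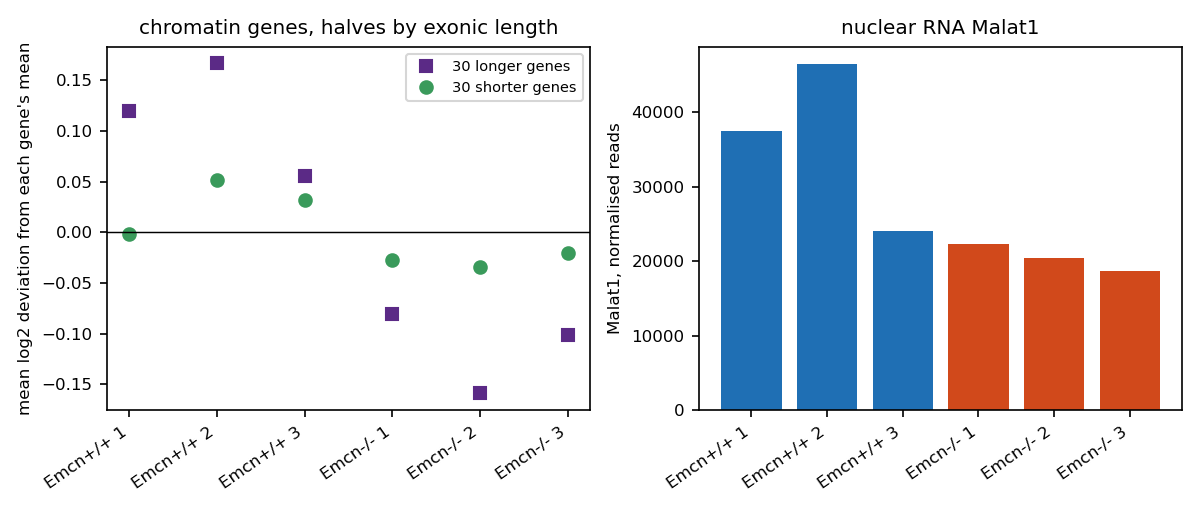
Left, mean log2 deviation from each gene's mean over the 30 longer (squares) and 30 shorter (circles) chromatin genes in each library; right, Malat1 normalised reads (blue Emcn+/+, orange Emcn-/-). Both the longer genes and Malat1 are highest in Emcn+/+ replicates 1 and 2. Emcn+/+ replicate 3 lies close to the Emcn-/- libraries for Malat1, but closer to its own genotype for the longer genes.

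Other genes of the same machinery, in 4 lists that hold none of the 60, were spread around 0. Of 190 tested, 105 had lower and 85 higher estimates (48.0% and 52.0% of all tested genes), with a median of -0.0079. Without overlap, 25 were lower and 15 higher (6.94% and 7.48% of all). At an unadjusted p under 0.05 limma counted 15 lower and 5 higher (4.47% and 3.67% of all). After adjustment limma and edgeR called 0 of them (0.00599% of genes with either). DESeq2 called 1 of the 134 it adjusted, lower (0.919% of genes called lower). The 105 further subunits of the same complexes, mostly short genes (median exonic length 4914 bp), had a median of 0.0062, with 50 lower and 55 higher. Of those with lower estimates, Hcfc1, a cell cycle co-factor of the SETD1 and KMT2 complexes, had 2104, 2100.2 and 2020.3 against 1810.1, 1707 and 1768 (-0.24 ± 0.051), without overlap. The short subunits with the smallest p on the other side were Sap18, of the SIN3 complex (739, 722 and 759 against 867, 857 and 819; 0.19 ± 0.060), and Znhit1, of the SRCAP complex (395, 406 and 399 against 482, 450.2 and 472; 0.23 ± 0.072). Within the SRCAP complex, the long ATPase and this short subunit had estimates of opposite sign. Znhit1 was picked from the higher estimates by its small p, so the pair is no comparison of long and short subunits. The 14 other remodelling ATPases had a median of -0.063. Atrx, an X-linked remodeller of heterochromatin and the DESeq2 call of the lists, had 3325, 3283 and 3011 against 2684, 2432 and 2674 (-0.30 ± 0.063), and its exonic length of 21.8 kb is like that of Ubn2. Ercc6, which acts in transcription-coupled repair, had 488, 562 and 471 against 439, 453 and 466 (-0.16 ± 0.086). On the higher side, Chd1l had 327, 338 and 379 against 379.7, 374 and 419.6 (0.17 ± 0.092) and Smarcad1 654, 686 and 733 against 722, 728 and 734 (0.076 ± 0.066). The 10 genes of DNA methylation had a median of -0.14 with 9 lower, and those of smallest p were the methylcytosine oxidases Tet3 (6186, 6681 and 6403 against 5668, 5646 and 5411; -0.20 ± 0.052) and Tet2 (1206, 1236 and 1187 against 1121, 1094 and 1067; -0.14 ± 0.054). Tet1 (-0.21), Dnmt3b (-0.18) and Dnmt3a (-0.15) had larger differences than Tet2. Uhrf1, the 1 with a higher estimate (0.46 ± 0.52), had only 14.5, 14.8 and 56.8 against 33.1, 21.8 and 46.2 normalised reads, with overlap.

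Among 61 other histone-modifying enzymes (38 lower, 23 higher, median -0.036), the demethylase-like gene Jmjd1c had 2549, 2439 and 2505 against 2165, 2218 and 2291 (-0.17 ± 0.050). Suv39h1, a methyltransferase of lysine 9, had 526, 486 and 515 against 583, 599 and 553 (0.18 ± 0.071), and Sirt2, a deacetylase that depends on NAD, 1770.3, 1919 and 1839 against 1936, 1999 and 1988 (0.10 ± 0.053). Kdm6a and Kdm5c are X-linked demethylases that escape X inactivation. Kdm6a had 846, 845 and 1391 in Emcn+/+ and 796, 736 and 747 in Emcn-/-, with the highest value in the female library. Kdm5c had 2906, 3133 and 4189 and 2861, 2635 and 2711, in the same pattern. Their log2 fold changes were -0.39 ± 0.17 and -0.30 ± 0.12 with all libraries and -0.16 and -0.14 without the female one.

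Levels can be compared between genes per kilobase of exonic length. In Emcn+/+ the NuRD ATPase Chd4 had the highest level of the 60, at 703 ± 14.9 normalised reads per kb (SD, n = 3), followed by Smarca4 at 653 ± 13.5, Suz12 at 603 ± 21.7 and Chd3 at 506 ± 72.3. Kat2b came next at 429.6 ± 1.62, and Chd3 was below it in Emcn+/+ replicate 3 (424). Kmt2a stood at 309.6 ± 25.3, within the spread of Hdac2 at 309.7 ± 9.56 per kb of exonic length. Per kb of the longest transcript the order changed: Kmt2a stood at 313 and Hdac2 at 426, Suz12 (681) passed Smarca4 (663), and Smarca2 (581) passed Kat2b (449). On exonic length, the lowest levels were those of Srcap (11.7 ± 1.82), Kdm2b (34.03 ± 2.41) and Ezh2 (34.6 ± 3.52). Within the pairs of paralogs, Ezh1 (183) was above Ezh2, Smarca4 above Smarca2 (241), Ep300 (224) above Crebbp (115) and Kat6a (386) above Kat6b (85.4), each by more than the SD of either gene. The median coefficient of variation within a genotype was 4.64% in Emcn+/+ and 4.57% in Emcn-/-, and the median gene of the 60 was 9.60% lower in Emcn-/-.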

How the data were processed

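Poly-A RNA was sequenced from 1.3 µg of RNA per retina library, per the labels' protocols. The authors deposited 1 table of normalised read signal, on genome build GRCm38 per the submitters' processing notes. Its aligner, counter, annotation release and strand setting were not given in the sources used here, so where genes overlap or lie antisense their reads cannot be separated. Every value (100%, tolerance 0.001 of a read) was a whole multiple of what 1 read is worth in its library, 0.924 to 1.09 normalised reads, and this gave back the reads. A count of 0 allows up to 2.77 to 3.28 normalised reads (3 reads, counting error only).

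Genes passing edgeR's filter (minimum count 10) were fitted on log2(value + 1) in limma 3.58.1 under R 4.3.3, with an intensity trend, genotype as sole term and p adjusted by Benjamini-Hochberg over 16681 genes. Fold changes are on that scale, which understates changes of low genes. The recovered reads also went into edgeR 4.0.16 (TMM) and DESeq2 1.42.0, which gave 6417 genes an adjusted p. The fits were tested on simulated data. Lengths came from GENCODE M21 (GRCm38): exonic length is the union of exons, found for 98.4% of tested genes, and length trends were loess curves per library.

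The genes and lists were chosen with earlier results of these data known. Values in every library are given for the 2 genes with the smallest limma p and the gene with the highest fold change in each role group, for 12 fixed genes, and for the 2 of smallest p in each direction of the other lists with Atrx, Kdm5c and Kdm6a; Kdm5b, Kat2b and Srcap were added after their values were seen, and 1 gene that the rule names is not reported here. Alternatives were other scalings, tests, pseudocounts and filters, leaving out libraries, a block for title numbers, and length.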

Additional observations from a re-analysis of the deposited data

How the results depend on the processing

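No paired analysis was possible because the labels give no replicate numbers; those used here only name the samples. The number of genes called was 1 with limma, 72 with DESeq2, 49 with DESeq2 without its filter on the mean, 0 over genes with a mean of at least 100, and 42 in the 4 libraries of the 140s. Of the 60 chromatin genes the same fits called 0, 9, 5, 0 and 4. Leaving out 1 library gave 0 to 151 genes and 0 to 9 of the 60, the upper ends without Emcn+/+ replicate 3. No gene at all was called without Emcn+/+ replicate 1 or 2 or Emcn-/- replicate 1. In these fits 49 to 52 of the 60 were below 0, and the median of the 60 was -0.17 to -0.12. Lower without overlap were 37 to 41, with no share over all tested genes given beside it. That count can only stay or rise when a library is left out, so it does not test the dependence on single libraries. Long minus short genes was -0.17 to -0.11 (main value -0.14). It was -0.19 between the longest and shortest 20. Removing the trend on exonic length gave a median of -0.053, -0.037 for long minus short and 18 without overlap, again with no background share. Removing that on coding length gave -0.027 and -0.065. By construction both remove what the genes share with others of their length. The medians of other histone-modifying enzymes, other ATPases and DNA methylation genes became 0.0028, 0.0067 and -0.038 with the exonic trend removed, and 0.0042, 0.018 and -0.082 with the coding trend removed. For the first of these it was -0.0039 in the 140s libraries. Leaving out 1 library gave -0.040 to -0.0052, -0.082 to -0.017, -0.16 to -0.10 and, for other subunits, -0.016 to 0.019. Scaling (TMM, upper quartile) and pseudocounts 0.5 and 5 left 49 or 50 of the 60 below 0. No filter, a mean of at least 100 and a block for the title series could not change these estimates. All 60 genes passed both filters, and the title series is balanced over the genotypes. Of the 60 genes under 19 alternatives, 18 changed sign in at least 1, with main values of up to 0.17 in size: 13 turned above 0 with the coding trend removed (Arid1b, Bptf, Chd3, Chd4, Chd6, Chd7, Chd8, Ehmt1, Ehmt2, Kdm2b, Kdm5a, Kdm5b and Smarca4) and 4 with the exonic trend removed (Chd6, Kdm2b, Kdm5a and Kdm5b). Under the other 17, which include the settings that could not change an estimate, 6 changed sign (Ezh2, Hdac1, Kat5, Kat7, Kdm5b and Suz12). All 6 had main values within 0.055 of 0. The cause was not tested. Per kilobase of the longest transcript, the median level in Emcn+/+ was 268 in place of 183. The fits with the coding trend removed, in the 140s libraries and with DESeq2 without its filter were chosen after seeing the data. The alternative with protein length was not run.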
